A study of Mus musculus with 12 samples.

Results

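Very-long-chain polyunsaturated fatty acids and docosahexaenoic acid (DHA) were followed through 9 genes that make, activate, carry or retain them: Elovl2, Elovl4, Elovl5, Fads1, Fads2, Acsl6, Mfsd2a, Fabp5 and Adipor1. They were taken by gene symbol from the deposited tables of 37991 genes, and all 9 were found and passed the filters on low values. The RNA came from whole retinas of 8-week-old male mice in 4 groups of 3 libraries, each library a pool of 6 to 8 retinas. F0 C57BL/6J is the standard laboratory strain and F0 Cast/EiJ is a wild-derived inbred strain, both untreated. F1 B6xCast animals had a C57BL/6J father and a Cast/EiJ mother, and F1 CastxB6 animals had the opposite parents. The hybrids carry 1 copy of each parental genome, and counting reads per copy asks whether a gene that differs between the parents also differs between the copies.

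DHA is the main long polyunsaturated fatty acid of photoreceptor outer segment discs. The essential fatty acids of the diet are desaturated by the enzymes encoded by Fads1 and Fads2 and lengthened in turn by elongases, of which ELOVL5 acts on shorter polyunsaturated chains, ELOVL2 on the longer chains that lead to DHA, and ELOVL4 on the very long chains beyond it. ACSL6 activates DHA as its coenzyme A ester, MFSD2A carries DHA as a lysophospholipid across membranes of the blood-retina barrier, FABP5 binds fatty acids in the cytosol, and the receptor ADIPOR1 is needed for normal DHA content of the retina.

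Each library held 8158534 to 12363291 unique hits, that is, read pairs that map to 1 gene and, in a hybrid, to 1 of its alleles. Levels are given as count equivalents, the authors' normalized estimate of a gene's reads, per library in F0 and per allele in F1, where each allele column has the scale of a whole F0 library. Levels of different genes are compared as FPKM, fragments scaled to transcript length and library size. Every listed marker of the retina's neurons and Mueller glia had unique hits. The 10 rod markers summed to 18708 to 19129 FPKM in F0 C57BL/6J and to 19904 to 20814 FPKM in F0 Cast/EiJ. Cone and ganglion cell marker sums were lower in F0 Cast/EiJ, at 315 to 373 against 432 to 507 FPKM and 211 to 228 against 284 to 312 FPKM, and amacrine sums were higher, at 423 to 449 against 316 to 357 FPKM. Their part in any strain difference reported here was not tested. Marker sums of tissues next to the retina were low beside the rod sums, but not beside every gene followed here. The 8 lens markers summed to 27.0 to 42.0 FPKM in F0 C57BL/6J and 32.4 to 44.3 FPKM in F0 Cast/EiJ. The 9 retinal pigment epithelium markers summed to 12.6 to 14.4 FPKM in F0 C57BL/6J and 5.01 to 6.14 FPKM in F0 Cast/EiJ, and the 5 blood markers to 76.0 to 114.7 and 35.5 to 58.0 FPKM. In whole tissue, fewer cells of a type and less RNA per cell cannot be told apart. Nothing in the labels says that the pools of a group came from separate litters, so p-values measure the spread between pools.

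The stretch upstream of the start site is shown for Elovl2 and Adipor1, the genes with a difference of the same direction between strains and between alleles. It is also shown for Elovl4, the most abundant elongase among the 9 genes, which was called in neither. Each is the 250 bases before the outermost RefSeq start in build GRCm38.p6 of the C57BL/6J reference, written 5′ to 3′ on the strand of the gene. Capitals mark matches, on either strand, to the CCAAT box (CCAAT), the E-box (CACGTG), the photoreceptor homeodomain core (TAATCC) and the GC box (GGGCGG), which may overlap.
Elovl2, minus strand, chr13:41220404-41220653: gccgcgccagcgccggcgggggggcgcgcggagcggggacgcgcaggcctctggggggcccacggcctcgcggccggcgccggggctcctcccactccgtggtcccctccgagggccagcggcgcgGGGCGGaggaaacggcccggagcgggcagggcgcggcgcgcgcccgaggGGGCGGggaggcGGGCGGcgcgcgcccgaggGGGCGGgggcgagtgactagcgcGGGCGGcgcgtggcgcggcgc
Adipor1, plus strand, chr1:134415128-134415377: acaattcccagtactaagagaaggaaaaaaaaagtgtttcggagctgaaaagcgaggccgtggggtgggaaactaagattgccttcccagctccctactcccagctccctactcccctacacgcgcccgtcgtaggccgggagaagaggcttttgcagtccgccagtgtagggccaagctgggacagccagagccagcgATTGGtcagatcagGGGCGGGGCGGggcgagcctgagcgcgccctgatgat
Elovl4, minus strand, chr9:83806306-83806555: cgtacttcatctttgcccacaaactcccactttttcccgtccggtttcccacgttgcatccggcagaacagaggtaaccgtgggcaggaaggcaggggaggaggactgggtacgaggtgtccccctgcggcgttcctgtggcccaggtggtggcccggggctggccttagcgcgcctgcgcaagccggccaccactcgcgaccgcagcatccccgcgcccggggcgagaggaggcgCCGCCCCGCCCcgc
The Elovl2 stretch had a GC content of 87.2% and 49 CpG dinucleotides, a number that 0.146% of 32851 mouse promoters of the same length reach, against a median of 6. It held 5 GC boxes. The Adipor1 stretch held 2 GC boxes, 1 CCAAT box and 15 CpG dinucleotides, and the Elovl4 stretch held 2 GC boxes and 25 CpG dinucleotides. Over all 32851 promoters, 32.7% held a GC box, 33.8% a CCAAT box, 6.02% the E-box and 6.25% the homeodomain core. The E-box was found upstream of Elovl5, and none of the 7 matched genes held the homeodomain core. Fads1 and Fabp5 have no entry in the table. These letters are those of the reference strain, and the Cast/EiJ sequence of these windows was not analysed here.

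Adipor1 and Elovl4 were the most highly expressed of the 9 genes in every group, followed by Acsl6. In F0 C57BL/6J retinas Adipor1 reached 144.5 ± 3.5 FPKM (SD, n = 3), Elovl4 132.8 ± 6.5 FPKM and Acsl6 54.6 ± 1.2 FPKM. Fads2 at 20.1 ± 1.6 FPKM, Elovl2 at 16.4 ± 0.72 FPKM, Fads1 at 15.1 ± 0.49 FPKM, Fabp5 at 12.4 ± 2.9 FPKM and Elovl5 at 8.15 ± 0.46 FPKM followed, and Mfsd2a was lowest at 1.21 ± 0.27 FPKM. Only the neighbours Elovl2 and Fads1 overlapped in this order. In F0 Cast/EiJ retinas Elovl2 moved above Fads2, to 44.5 ± 2.5 FPKM, and Fabp5 fell below Elovl5, to 4.71 ± 0.93 FPKM against 9.02 ± 0.59 FPKM. In the hybrids, with the alleles averaged, the order was the same in both crosses, from Adipor1 at 184.2 ± 5.8 FPKM in F1 B6xCast and 185.4 ± 5.6 FPKM in F1 CastxB6 down to Mfsd2a at 0.758 ± 0.13 and 0.562 ± 0.06 FPKM. Elovl2 followed Acsl6 in both, at 30.6 ± 1.2 and 29.6 ± 1.3 FPKM, between its parental levels.

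**Figure D1:**
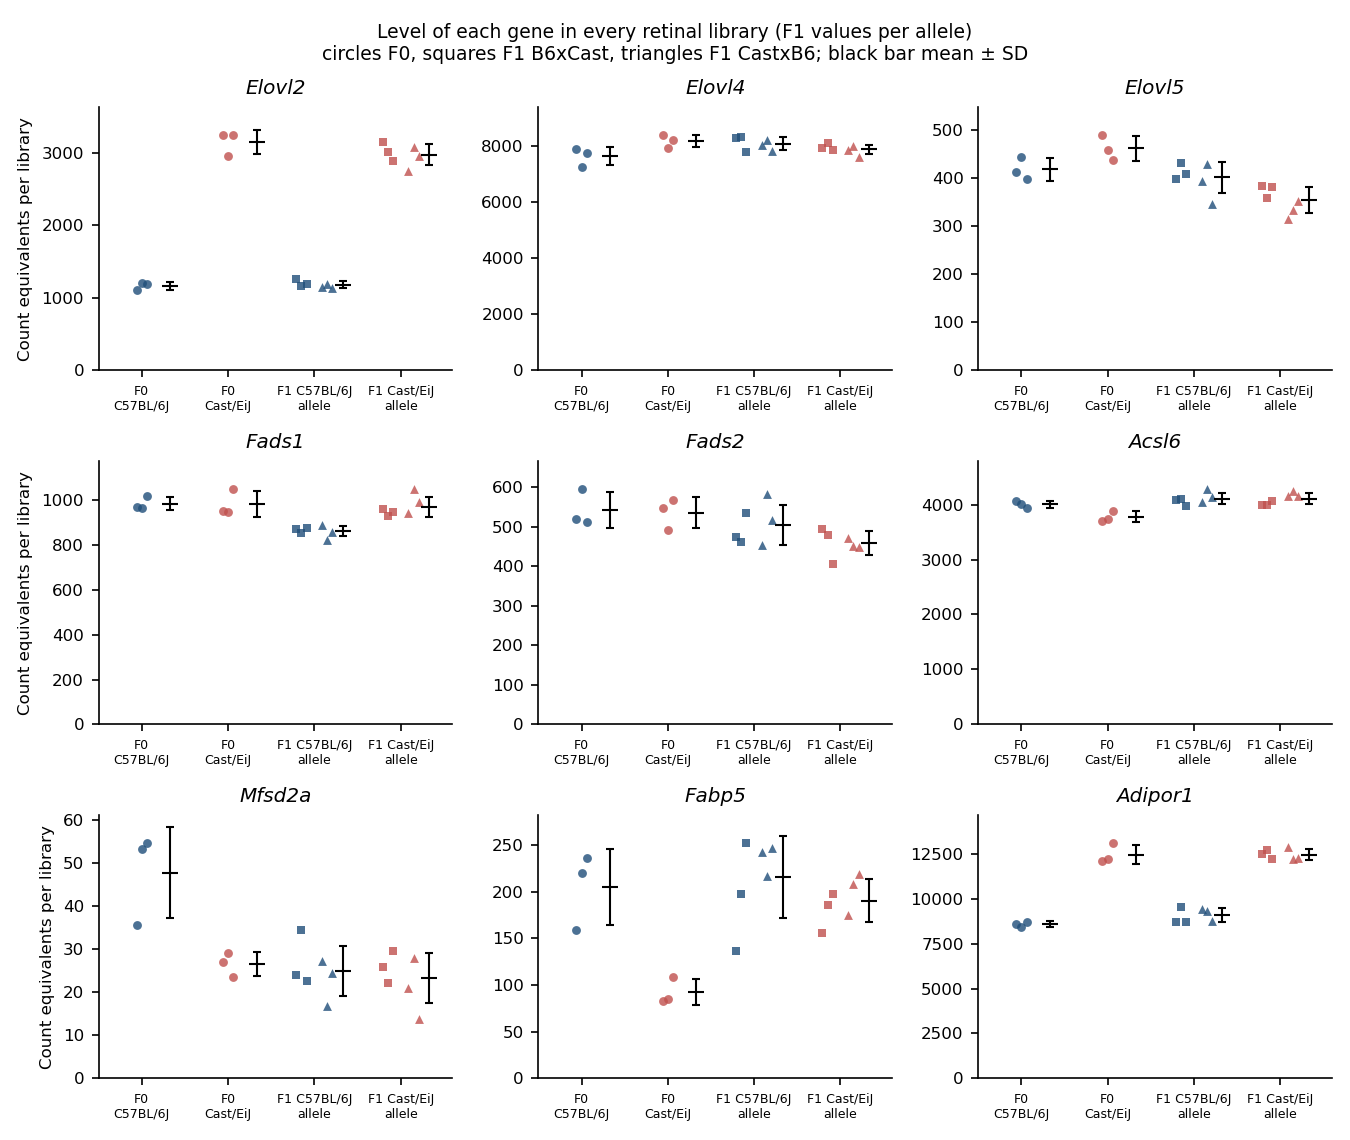
Count equivalents of the 9 genes (vertical axes, linear from 0) in each F0 library and for each allele of each F1 library; circles are F0, squares F1 B6xCast and triangles F1 CastxB6, blue is C57BL/6J and red Cast/EiJ, and the black bar is the mean ± SD. Elovl2 and Adipor1 separate by strain and by allele, while Fabp5 is low in F0 Cast/EiJ but not on the Cast/EiJ allele of the hybrids.

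Between the F0 strains, 4 of the 9 genes differed. Elovl2 and Adipor1 were higher in Cast/EiJ and Fabp5 and Mfsd2a were lower (limma on log2 values with a pseudocount of 1, Benjamini-Hochberg adjusted p under 0.05). By the same test 33.8% of 14452 autosomal genes were called, 17.2% higher and 16.6% lower, so the share of called members was near that of all genes. The F0 libraries of both strains did not overlap for 6 of the 9 genes, against 48.0% of all genes tested. The median log2 difference of the 9 genes was -0.01, beside 0.03 for all genes. On unique hits edgeR's quasi-likelihood test called the same 4 members, with 37.1% of all genes called. With the pseudogene Gm6166 added to Fabp5, as described below, limma called 3 members, without Fabp5, beside 4885 of 14452 genes. The Mfsd2a call was lost with no filter on low values. It was also lost when any F0 library other than C57BL/6J replicate 1 was left out.

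Between the alleles of the hybrids, 4 of the 9 genes differed as well. The Cast/EiJ allele was higher for Elovl2, Adipor1 and Fads1 and lower for Elovl5. The test called 47.0% of 13414 autosomal genes, 23.5% in either direction. For 3 of the 9 genes all 6 hybrid libraries pointed the same way, against 42.0% of all genes. Called in both comparisons with the same direction were 2 of 9 genes, Elovl2 and Adipor1, against 22.2% of the 13055 genes tested in both. The median allelic log2 difference of the members was -0.03, and that of all genes was 0.00. On unique hits edgeR, fitted without the library as a block, called 42.7% of all genes and 4 members, with Fabp5 in place of Elovl5.

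The difference between strains exceeded or fell short of the allelic difference for 2 of the 9 genes, Elovl5 and Fabp5, in a test of the difference itself that called 14.0% of 13414 genes. EdgeR on unique hits called 14.1% of genes and, of the members, only Fabp5, in the opposite direction. With the pseudogene Gm6166 added, as described below, Fabp5 was at 0.09 in count equivalents (adjusted p = 0.86, limma). On unique hits this sum gave 1.65 (adjusted p = 1.5e-05, edgeR). The Elovl5 call was lost under several alternatives, given with that gene.

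**Figure D2:**
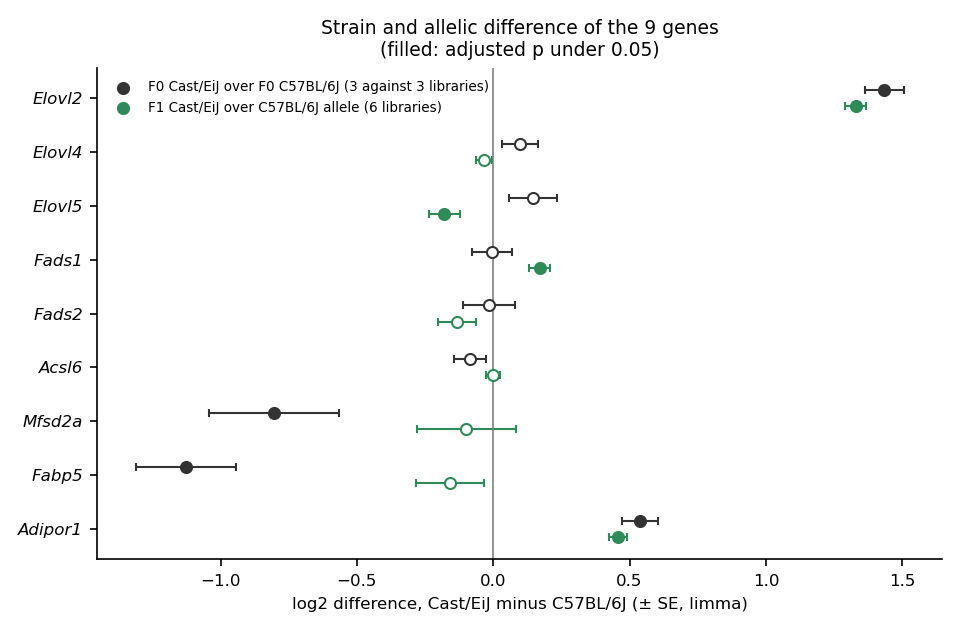
Log2 difference of Cast/EiJ minus C57BL/6J on the horizontal axis for each gene, between F0 strains in black and between F1 alleles in green, with limma's SE as bars and filled points for an adjusted p under 0.05. Elovl2 lies near 1.43 and 1.33 and Adipor1 near 0.54 and 0.46, whereas Fabp5 lies at -1.13 between strains and at -0.16 between alleles.

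Elovl2 (ENSMUSG00000021364, chr13:41277864-41315774, minus strand, build NCBI37), the elongase on the path to DHA, showed the largest difference of the 9. The F0 C57BL/6J libraries held 1100, 1200 and 1190 count equivalents and the F0 Cast/EiJ libraries 3240, 2960 and 3240. Every Cast/EiJ library was above every C57BL/6J library, and the means of 1163 ± 55.1 and 3147 ± 162 (SD, n = 3 each) differed 2.70-fold, a log2 difference of 1.43 ± 0.07 (SE, adjusted p = 9.7e-07, limma). Of all genes tested, 7.89% had a log2 difference of this size or larger. In the 6 hybrid libraries the C57BL/6J allele ranged from 1140 over a median of 1175 to 1260 count equivalents, and the Cast/EiJ allele from 2750 over 2980 to 3150. The alleles did not overlap either. The allelic log2 difference was 1.33 ± 0.04 (adjusted p = 5.3e-14), which 5.63% of genes reached. Of 16749 allele-specific unique hits 11905 carried the Cast/EiJ allele, a share of 71.1% ± 0.73 over the 6 libraries, higher in 6 of 6. The strain difference minus the allelic difference was 0.11 ± 0.07 (adjusted p = 0.35).

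Elovl4 (ENSMUSG00000032262, chr9:83672300-83699912, minus strand), the elongase of very long chains that photoreceptors express, was not called in any comparison. F0 C57BL/6J libraries held 7880, 7250 and 7750 count equivalents and F0 Cast/EiJ libraries 8370, 7930 and 8190. The Cast/EiJ libraries were all slightly above, while the log2 difference of 0.10 ± 0.07 did not pass the test (adjusted p = 0.27). The rod marker sums given above, which also did not overlap between the strains, moved the same way, and their part in this difference was not tested. In the hybrids the C57BL/6J allele ranged from 7780 over 8115 to 8300 count equivalents and the Cast/EiJ allele from 7600 over 7875 to 8090. The allelic ranges overlapped and the log2 difference was -0.03 ± 0.03 (adjusted p = 0.38). With 58031 allele-specific unique hits, the share of the Cast/EiJ allele was 48.9% ± 0.40, close to the 49.5% to 49.6% of all autosomal unique hits.

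Elovl5 (ENSMUSG00000032349, chr9:77765171-77832326, plus strand), the elongase of shorter polyunsaturated chains, had opposite signs in the comparisons. F0 C57BL/6J libraries held 413, 445 and 398 count equivalents and F0 Cast/EiJ libraries 490, 459 and 439, ranges that overlapped. The strain log2 difference was 0.14 ± 0.09 (adjusted p = 0.24). In the hybrids the C57BL/6J allele ranged from 346 over 404 to 432 count equivalents and the Cast/EiJ allele from 315 over 356 to 385. The Cast/EiJ allele was lower in 5 of 6 libraries, by -0.18 ± 0.06 on the log2 scale (adjusted p = 0.016). This call was lost on unique hits (adjusted p = 0.064) and in F1 B6xCast alone (adjusted p = 0.21). It was also lost without F1 B6xCast replicate 2 (adjusted p = 0.085) and without F1 CastxB6 replicate 1 or 2 (adjusted p = 0.077 and 0.080). The strain difference minus the allelic difference was 0.32 ± 0.10 (adjusted p = 0.046), close to the threshold and lost under 4 alternative settings and without any of 8 libraries.

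Fads1 (ENSMUSG00000010663, chr19:10257378-10271360, plus strand) and Fads2 (ENSMUSG00000024665, chr19:10138654-10175993, minus strand) encode the delta-5 and delta-6 desaturases and lie side by side on chromosome 19. Fads1 was at 971, 966 and 1020 count equivalents in F0 C57BL/6J and at 951, 948 and 1050 in F0 Cast/EiJ. Fads2 was at 520, 595 and 512 count equivalents in F0 C57BL/6J and at 548, 492 and 568 in F0 Cast/EiJ. Both genes overlapped between the strains, with log2 differences of -0.01 ± 0.07 and -0.02 ± 0.10 (adjusted p = 0.97 and 0.91). The Fads1 alleles differed in the hybrids, where the C57BL/6J allele ranged from 825 over 866 to 889 count equivalents and the Cast/EiJ allele from 931 over 956 to 1050. These ranges did not overlap, and the log2 difference was 0.17 ± 0.04 (adjusted p = 0.0017), a 1.13-fold difference. Of 4234 unique hits of Fads1, 52.5% ± 1.6 carried the Cast/EiJ allele, above 50% in 6 of 6 libraries. In F1 B6xCast alone the Fads1 log2 difference was 0.13 (adjusted p = 0.086). The Fads2 alleles overlapped, at 454 over 496 to 582 and at 406 over 462 to 494 count equivalents, with a log2 difference of -0.13 ± 0.07 (adjusted p = 0.12). The Fads2 share of Cast/EiJ unique hits split the libraries, at 50.5% in each of 3 and between 42.6% and 45.9% in the other three, and both sets held libraries of both crosses. Without F1 CastxB6 replicate 1 the Fads2 allelic difference became -0.19 (adjusted p = 0.0497).

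Acsl6 (ENSMUSG00000020333, chr11:54117300-54178258, plus strand), which activates DHA for storage in phospholipid, was at 4060, 4010 and 3940 count equivalents in F0 C57BL/6J and at 3710, 3730 and 3890 in F0 Cast/EiJ. The Cast/EiJ libraries were all lower, yet the log2 difference of -0.08 ± 0.06 did not pass the test (adjusted p = 0.30). On the FPKM scale the sign was opposite, at 54.6 ± 1.2 against 58.3 ± 2.5 FPKM, so no direction can be given. The alleles overlapped in the hybrids, at 3980 over 4095 to 4280 count equivalents for C57BL/6J and 3990 over 4115 to 4240 for Cast/EiJ. Their log2 difference was -0.00 ± 0.03 (adjusted p = 0.98), and 49.7% ± 0.59 of 36007 unique hits carried the Cast/EiJ allele.

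Mfsd2a (ENSMUSG00000028655, chr4:122624093-122638431, minus strand), the lysophospholipid transporter of endothelium and pigment epithelium, was scarce. F0 C57BL/6J libraries held 35.6, 53.3 and 54.7 count equivalents, from 28, 48 and 44 unique hits, and F0 Cast/EiJ libraries held 27.0, 29.2 and 23.5, from 16, 18 and 17 unique hits. The groups did not overlap, and Mfsd2a was 1.75-fold lower in Cast/EiJ, a log2 difference of -0.81 ± 0.24 (adjusted p = 0.029). The call was lost with no filter on low values (adjusted p = 0.10) and when any F0 library other than C57BL/6J replicate 1 was left out (adjusted p = 0.050 to 0.11). Pigment epithelium markers, whose sums are given above, were called lower for 3 and higher for 1 of 7 tested. The 7 endothelial markers summed to 31.6 to 44.3 FPKM in F0 C57BL/6J and 42.3 to 53.9 FPKM in F0 Cast/EiJ, with 2 called lower (Pecam1, -0.98 ± 0.18, and Cdh5, -0.96 ± 0.22) and 2 called higher (Kdr, 0.65 ± 0.13, and Slco1c1, 0.64 ± 0.14), as log2 differences. The part of these cells in the Mfsd2a difference was not tested. In the hybrids the C57BL/6J allele ranged from 16.8 over 24.3 to 34.5 count equivalents and the Cast/EiJ allele from 13.8 over 24.1 to 29.6. The alleles overlapped, with a log2 difference of -0.10 ± 0.18 (adjusted p = 0.69). Only 132 allele-specific unique hits stood behind it, and single libraries had Cast/EiJ shares from 35.3% (95% Wilson interval 17.3% to 58.7%) to 61.9% (40.9% to 79.2%) (counting error only). At this depth small allelic differences were not detectable. The strain difference minus the allelic difference was -0.71 ± 0.33 (adjusted p = 0.17).

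**Figure D3:**
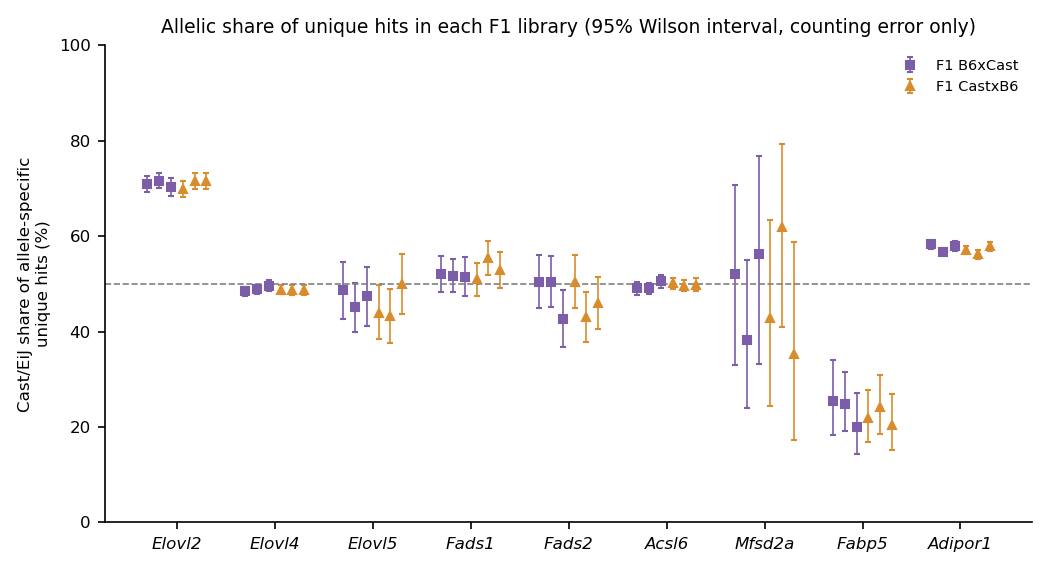
Share of allele-specific unique hits that carry the Cast/EiJ allele (vertical axis, percent) in each F1 library, squares for F1 B6xCast and triangles for F1 CastxB6, with 95% Wilson intervals that cover counting error only; the dashed line is at 50%. Elovl2 lies near 71% and Adipor1 near 57% in all 6 libraries, Fabp5 near 23%, and Mfsd2a spreads from 35.3% to 61.9%.

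Fabp5 (ENSMUSG00000027533, chr3:10012548-10016607, plus strand), a cytosolic fatty acid-binding protein, was called lower in the Cast/EiJ strain by limma on count equivalents. Its alleles were not called by limma, but were called by edgeR on unique hits, as given below. F0 C57BL/6J libraries held 159, 220 and 236 count equivalents and F0 Cast/EiJ libraries 83.3, 85.5 and 109. The groups did not overlap, and Fabp5 was 2.19-fold lower in Cast/EiJ, a log2 difference of -1.13 ± 0.18 (adjusted p = 0.0017). In the hybrids the C57BL/6J allele ranged from 137 over 230 to 252 count equivalents and the Cast/EiJ allele from 156 over 192 to 219, ranges that overlapped. The allelic log2 difference was -0.16 ± 0.13 (adjusted p = 0.32), and the strain difference minus the allelic difference was -0.97 ± 0.23 (adjusted p = 0.0090).

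Fabp5 shares sequence with other loci. Of its 987 distinct 50-base stretches, 38.0% recur in exons of 4 pseudogenes of the same build, 361 of them in Gm6166 (ENSMUSG00000074280, chr9:57331720-57332392, plus strand). For 7 of the other members no such stretch recurs, and for Acsl6 0.937% do. The longest coding exon of Fabp5 is shown beside its match in Gm6166, read from the NCBI37 reference with the base at which they differ in capitals, because reads of one can be taken for reads of the other.
Fabp5, plus strand, chr3:10014971-10015143: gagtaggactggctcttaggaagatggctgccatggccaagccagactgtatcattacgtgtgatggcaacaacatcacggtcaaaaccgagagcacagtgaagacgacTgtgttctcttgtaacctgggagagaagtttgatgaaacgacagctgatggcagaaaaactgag
Gm6166, plus strand, chr9:57331849-57332021: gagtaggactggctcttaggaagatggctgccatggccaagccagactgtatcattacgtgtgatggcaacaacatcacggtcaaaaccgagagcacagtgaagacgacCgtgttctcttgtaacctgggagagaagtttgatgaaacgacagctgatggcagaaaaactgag
The pair differed at 1 of 173 bases. Gm6166 itself was at 0.999 and 0.947 count equivalents in F0 C57BL/6J replicates 1 and 2 and near 0 in replicate 3, with 2 unique hits in all. In F0 Cast/EiJ it was at 75.1, 105 and 121 count equivalents, with 36, 52 and 77 unique hits. In the hybrids the Cast/EiJ copy of Gm6166 was near 0 with 0 unique hits in all 6 libraries, and the C57BL/6J copy reached at most 5.58 count equivalents. Gm6166 was therefore high only in the 3 libraries in which Fabp5 was low.

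Adding both loci, a step chosen after these values were seen, gave 160.0, 220.9 and 236.0 count equivalents in F0 C57BL/6J and 158.4, 190.5 and 230.0 in F0 Cast/EiJ. The strains then overlapped, with a log2 difference of -0.09 ± 0.18 (adjusted p = 0.74), and the strain difference minus the allelic difference was 0.09 ± 0.23 (adjusted p = 0.86). On summed unique hits the strain difference was also small (log2 difference -0.08, adjusted p = 0.77, edgeR), but the allelic difference was -1.74 (adjusted p = 9.0e-10) and the strain difference minus the allelic difference was 1.65 (adjusted p = 1.5e-05). Unique hits of the alleles did not follow the count equivalents. The C57BL/6J allele of Fabp5 had 791 and the Cast/EiJ allele 232, a Cast/EiJ share of 22.8% ± 2.3 and a log2 difference of -1.73 (adjusted p = 3.7e-10, edgeR). Per 100 count equivalents the C57BL/6J allele had 61.1 unique hits and the Cast/EiJ allele 20.3, whereas for Elovl2 these numbers were 68.3 and 66.8 and for Adipor1 52.4 and 51.3. On unique hits the strain difference minus the allelic difference of Fabp5 was 0.69 (adjusted p = 0.045), the reverse of the sign in count equivalents. How the reads of these loci were divided was not tested, and the level of Fabp5 alone is uncertain in every group.

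**Figure D4:**
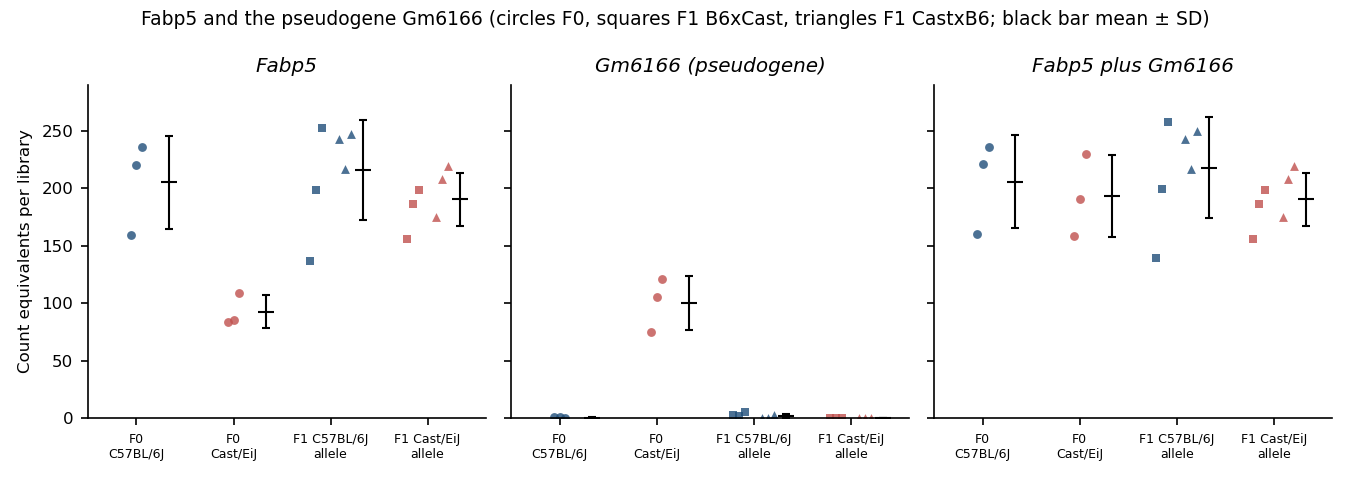
Count equivalents per library (vertical axis) of Fabp5, of the pseudogene Gm6166 and of their sum, in the F0 strains and for both alleles of the F1 libraries; circles are F0, squares F1 B6xCast, triangles F1 CastxB6, and the black bar is the mean ± SD. Gm6166 stands at 75.1 to 121 in F0 Cast/EiJ and near 0 elsewhere, and the sums overlap between the strains.

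Adipor1 (ENSMUSG00000026457, chr1:136311955-136329928, plus strand), a receptor of the adiponectin family needed for retinal DHA uptake and retention, was higher in Cast/EiJ in both comparisons. F0 C57BL/6J libraries held 8600, 8410 and 8730 count equivalents and F0 Cast/EiJ libraries 12100, 12200 and 13100. The strains did not overlap, and the means of 8580 ± 161 and 12467 ± 551 (SD, n = 3 each) differed 1.45-fold, a log2 difference of 0.54 ± 0.07 (adjusted p = 0.00033). The rod marker sums were higher in the same libraries and their part was not tested. In the hybrids the C57BL/6J allele ranged from 8700 over 9055 to 9560 count equivalents and the Cast/EiJ allele from 12200 over 12400 to 12900. The alleles did not overlap, in hybrids whose cells hold both, and the log2 difference was 0.46 ± 0.03 (adjusted p = 6.4e-09), a 1.37-fold difference. Of 66941 unique hits 57.4% ± 0.84 carried the Cast/EiJ allele, higher in 6 of 6 libraries. The strain difference minus the allelic difference was 0.08 ± 0.06 (adjusted p = 0.40). Elovl2 and Adipor1 thus held their calls, directions and sizes in strain and allele under every setting tried, with log2 ranges of 1.39 to 1.48 and 1.32 to 1.35 for Elovl2 and 0.50 to 0.56 and 0.44 to 0.47 for Adipor1.

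The direction of the cross made no called difference for any of the 9 genes. In the test of the maternal over the paternal allele 0 of 9 were called by limma, 0 had an unadjusted p under 0.05, and edgeR on unique hits called 0, while limma called 0.492% of 13414 genes. The members' log2 values lay between -0.04 and 0.08. For the total level, both alleles summed, 0 of 9 differed between F1 CastxB6 and F1 B6xCast by limma and 0 by edgeR, against 0.0779% of 15397 genes called by limma. None of the 9 had an unadjusted p under 0.05 in limma and 1 did in edgeR. These log2 differences lay between -0.28 for Mfsd2a and 0.24 for Fabp5.

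Around the 9 genes, 50 further genes of fatty acid handling were followed in 6 lists. Of these, 17 of 45 tested differed between the F0 strains, 5 higher and 12 lower in Cast/EiJ, and 16 of 39 differed between alleles, 4 higher and 12 lower. Over all genes the tests called 33.8% and 47.0%, split about evenly by direction, so the shares of called genes were near the background and no list count below is read as particular to its list. With the replicate number as a block, 25 of the 45 were called between strains, and calls over all 14452 genes rose as well, from 4887 to 6376. The lists' median log2 differences were -0.02 and -0.01, beside 0.03 and 0.00 for all genes. In the elongation cycle 2 of 9 tested genes were lower in F0 Cast/EiJ and 0 higher. They were Elovl7, a fatty acid elongase (21.8 ± 1.8 against 64.0 ± 9.5 count equivalents, log2 difference -1.51 ± 0.21), and Elovl6, which lengthens palmitate (-0.39 ± 0.08). Between alleles, Elovl7 differed by -0.53 ± 0.11 and was the only one of 7 called, and Elovl6 was at 0.01 ± 0.05. The strain difference minus the allelic difference was called for both, at -0.97 ± 0.20 for Elovl7 and -0.40 ± 0.09 for Elovl6 (adjusted p = 0.0038 and 0.0042).

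Of the 5 other desaturase genes, 3 were lower in F0 Cast/EiJ, with a list median of -0.35. Scd2, a stearoyl-CoA desaturase, went from 5527 ± 248 to 3827 ± 230 count equivalents (-0.53 ± 0.07), Fads6 from 335.3 ± 10.3 to 211.7 ± 8.3 (-0.66 ± 0.09), and Degs1, which desaturates dihydroceramide, differed by -0.35 ± 0.11. Alleles of Fads6 and Scd2 differed in the same direction, by -0.43 ± 0.07 and -0.11 ± 0.04, and Degs1 was at -0.01 ± 0.07. Among enzymes that activate fatty acids or insert them into phospholipid, 2 of 10 tested were called between strains, both higher in Cast/EiJ. They were Lpcat1, which reacylates lysophosphatidylcholine (2517 ± 220 against 3827 ± 96.1 count equivalents, log2 difference 0.61 ± 0.08), and the phospholipase Pla2g6 (0.40 ± 0.10). Lpcat1 alleles differed by 0.02 ± 0.05 (adjusted p = 0.80), and the strain difference minus the allelic difference was 0.59 ± 0.09 (adjusted p = 3.1e-04), while Pla2g6 alleles differed by 0.21 ± 0.06. Called between alleles, and not between strains, were Agpat4 (-0.58 ± 0.11), Acsl3 (-0.21 ± 0.06) and Acsl1 (-0.14 ± 0.04).

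In all 7 of 39 surrounding genes had a strain difference that departed from the allelic one, with Scd2 (-0.42 ± 0.06), Abcd2 (-0.50 ± 0.13), Acsl3 (0.33) and Agpat4 (0.71) beside the 3 above. The same test called 14.0% of 13414 genes, so this count is near the background and is not read as particular to the surrounding genes.

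Peroxisomes shorten very long chains in the last step of DHA synthesis, and 4 of 7 genes tested there differed between the strains. Abcd2, a peroxisomal importer of very-long-chain acyl-CoA, was lower by -0.60 ± 0.11 between strains and at -0.10 ± 0.07 between alleles. The thiolases Acaa1a and Acaa1b were higher, by 0.29 ± 0.06 and, from 4.47 ± 0.89 to 35.9 ± 2.9 count equivalents, by 2.76 ± 0.29. Acaa1b was under the filter's 10 count equivalents in F0 C57BL/6J, so only the F0 Cast/EiJ libraries brought it into the test. Between alleles Acaa1a had the opposite sign, at -0.21 ± 0.15, and was not called (adjusted p = 0.28, limma). Acaa1b did not pass the filter of the allelic test. The thiolases are close paralogs, so their division of reads is uncertain.

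The largest difference among the surrounding genes was in uptake and binding. Slc27a2, a transporter that also activates very long chains, was at 6.90 ± 2.0 count equivalents in F0 C57BL/6J and 97.2 ± 16.3 in F0 Cast/EiJ, a log2 difference of 3.66 ± 0.28 (adjusted p = 1.9e-05), and at 10.9 ± 3.5 against 103.5 ± 12.5 for its alleles, 3.18 ± 0.16 (n = 6, adjusted p = 5.8e-11, limma). The F0 C57BL/6J level of Slc27a2 was under the filter's 10 count equivalents, so only the F0 Cast/EiJ libraries brought it into the strain test. The size of its difference rests on this low level. Lpl, the lipoprotein lipase, was lower by -1.59 ± 0.15 between strains and -1.69 ± 0.12 between alleles. Fabp4, a fatty acid-binding protein of adipocytes and endothelium, was lower by -1.62 ± 0.41 and -1.12 ± 0.26. In all 5 of 9 tested were called between strains, 1 higher and 4 lower, and 6 of 8 between alleles, 2 higher and 4 lower, beside 33.8% and 47.0% of all genes. The lower pigment epithelium and blood marker sums in F0 Cast/EiJ stand beside the strain values, and their part was not tested. In the adiponectin receptor list Adipor2, the second receptor, was lower in Cast/EiJ by -0.32 ± 0.09 between strains and -0.20 ± 0.05 between alleles, opposite in sign to Adipor1. Cdh13, a cadherin that binds adiponectin, was higher on the Cast/EiJ allele by 0.61 ± 0.09, with 0.39 ± 0.14 between strains (adjusted p = 0.058).

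**Figure D5:**
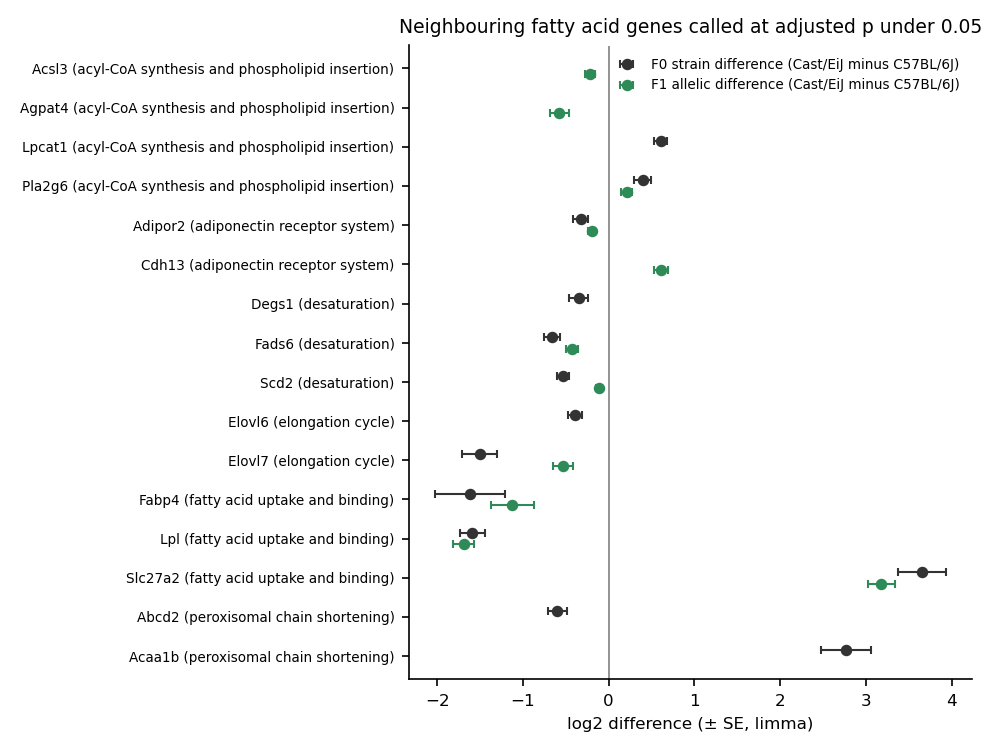
Log2 difference of Cast/EiJ minus C57BL/6J (horizontal axis, bars are limma's SE) for genes of the 6 surrounding lists, black between F0 strains and green between F1 alleles; a point is drawn only where the adjusted p was under 0.05, for at most 3 genes a list and comparison. Slc27a2 stands at 3.66 and 3.18 and Lpl at -1.59 and -1.69.

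Genes whose level most resembled a member over the 12 libraries were ranked by Pearson's r of log2 values among well-expressed autosomal genes (9739, means of 100 or more in count equivalents and in unique hits). Alleles were averaged in the hybrids, which was decided with the data in view, and the points share 4 groups, so a likeness mostly restates the pattern of the groups. Elovl2 was most like Impg2, a component of the photoreceptor matrix (r = 0.99), Asap3 and Zfp365 (r = 0.99 each). Adipor1 was most like Mettl7a1 (r = 0.99), Als2cr4 and Thoc5 (r = 0.98 each). Values for the other members were lower, from 0.92 for Elovl4 with Ppdpf, 0.94 for Acsl6 with Rrm2b and 0.93 for Fads2 with S1pr3 and Elovl5 with ENSMUSG00000093641 to 0.87 for Fads1 with Mmp14. Fabp5 was most like the ribosomal protein genes Rpsa and Rpl3 (r = 0.98 each), and Mfsd2a most like Fam168a (r = 0.92). The Fabp5 values rest on levels without Gm6166, which are uncertain in every group.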

How the data were processed

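Libraries were made from polyadenylated RNA without strand information and sequenced from both ends at 101 bp. F0 libraries took 1 lane and F1 libraries 2. The authors trimmed reads with Trim Galore 0.2.6, mapped them with Bowtie 0.12.9 to Ensembl 67 transcripts (NCBI37) carrying the alleles of the strain or of both parents and estimated expression with MMSEQ. The signal values, or count equivalents, were normalized by the authors and are not whole; column totals were 12648792 to 13843914. The natural log of expression was deposited by the authors, and its exponential was taken as FPKM. Its posterior SD, unit score, was deposited by the authors beside it and served as a weight. Unique hits are an unnormalized count deposited by the authors. A table of the authors' own model comparison (posterior probabilities, Bayes factors) was not used, and 36 columns of per-sample values were left out with it.

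For the strain test, an autosomal gene needed 10 or more count equivalents in 3 or more of the 6 F0 libraries. Alleles were compared in 1 model of all 12 libraries, with the F1 library as block (consensus correlation 0.135), for autosomal genes whose allele-specific unique hits averaged 10 or more per hybrid library. The pseudocount was 1, and fold changes are on the log2(value + 1) scale. P-values were adjusted over all genes tested. Since levels set beside F0 must be on the same scale, F1 alleles were averaged where summing had been planned, except between crosses. The genes most like a member were the 3 of highest r. Members, lists and tests were chosen with earlier results of these data known. Surrounding genes were named, at most 3 a list and comparison, by the size of a called difference, and Acsl1 and Acaa1a were named after their values were seen; 1 gene of the lists is counted but not reported here by name. Alternatives covered pseudocounts, filters, TMM factors, log expression, a replicate block, left-out libraries, edgeR and DESeq2. The edgeR fits of the alleles held no library block, so both alleles of a hybrid library entered as separate samples. Fits were tested on simulated data. Tools were R 4.3.3, limma 3.58.1, edgeR 4.0.16, DESeq2 1.42.0, statmod 1.5.0, Python 3.11.15, pandas 2.3.3, numpy 2.4.6, scipy 1.17.1 and matplotlib 3.10.9.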

Additional observations from a re-analysis of the deposited data

Results flagged for a closer look

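In F1 B6xCast replicate 3, Elovl4 had an allelic log2 ratio of 0.0092 and a Cast/EiJ share of unique hits of 49.7%, apart from the other 5 libraries at -0.061 to -0.036 and 48.5% to 48.9%. Both values lay beyond Dixon's critical ratio of 0.625 for 6 samples. With 18 sets examined, chance flags about 1 in 20, and this library had the fewest unique hits of the 6, 8808577.

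For Elovl5 the strain difference minus the allelic difference was 0.32 on the log2 scale, by the test of the difference itself (adjusted p = 0.046, limma), a call lost under 4 settings and without any of 8 libraries. For Fabp5 the same test gave -0.97, and the pseudogene Gm6166 was high in the F0 Cast/EiJ libraries in which Fabp5 was low. On unique hits the Fabp5 value was 0.69 (adjusted p = 0.045, edgeR), the opposite sign, and with Gm6166 added it was 0.086 in count equivalents (adjusted p = 0.86) and 1.65 on unique hits (adjusted p = 1.5e-05).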

How the results depend on the processing

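Of 561 member values recomputed under an alternative, 513 kept direction and side of the threshold, 26 lost a call, 3 gained one and 19 changed sign. Of the values of called members, 3 of 209 changed sign, all of them Fabp5 in the strain difference minus the allelic difference. Between strains, 4 members were called under most settings, and Acsl6 changed sign to 0.092 on the deposited log expression and 0.098 with weights. Leaving out 1 library moved Fads1 between -0.053 and 0.020 and Fads2 between -0.059 and 0.052. Between alleles, 2 members were called in F1 B6xCast only, Acsl6 was 0.019 on unique hits and 0.011 in F1 CastxB6 only, and leaving out 1 library moved Acsl6 between -0.013 and 0.0063 and Mfsd2a between -0.31 and 0.060. For the strain difference minus the allelic difference, 1 member was called with no filter, TMM factors, deposited log expression and edgeR on unique hits, and 1 to 2 when a library was left out. Acsl6 there became 0.098 on the deposited log expression and 0.11 with weights. Fabp5 there became 0.69 on unique hits and, with Gm6166 added, 0.086 in count equivalents and 1.65 on unique hits, settings under which 1 member was called. The cause of these changes was not tested, apart from Gm6166, which was added by construction. As ratios of F0 levels, unique hits scaled to library totals gave -0.082 for Acsl6 and -1.02 for Fabp5 in place of 0.09 and -1.40 in FPKM on the log2 scale.

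Over all genes, no filter gave 3161 called between strains in place of 4887, with 11 surrounding genes in place of 17. The maternal over paternal test called 31 genes with weighted log expression and 39 on unique hits in place of 66, and among the surrounding genes 0 to 1 when a library was left out. Between crosses, 6 genes were called on unique hits in place of 12, and 9 to 21 when a library was left out, the highest without F1 B6xCast replicate 2. Replicate numbers are shared by all groups. Same-numbered libraries deviated together with r from -0.11 to 0.26, over 0.1 in 6 of 18 pairs. The 9 pairs among F0 C57BL/6J, F0 Cast/EiJ and F1 B6xCast were all positive, at 0.038 to 0.26, and the 9 with F1 CastxB6 lay between -0.11 and 0.028. Since 1 of the 3 F0 pairs was under 0.1, at 0.038, the numbers were not taken as pairs. With the replicate block 4, 4 and 2 members were called in the strain, allelic and difference tests, as without it, and 6376 genes in place of 4887, with 25 surrounding genes in place of 17, between strains. Depth limits Mfsd2a, at 22.0 allele-specific unique hits per hybrid library, and intervals cover counting error only.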
